A study of Mus musculus with 16 samples.

Results

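Solute carriers are among the largest classes of membrane transporters, and their genes are named Slc, then a family number and a member number. Every gene whose Ensembl identifier maps to a mouse symbol made of Slc and a digit was taken from the deposited table, apart from Slc2a1, Slc3a2, Slc4a1 and Slc7a11. This gave 122 genes of the 6288 in the table and of the 126 with such a symbol there. Of the 122, 121 were protein-coding and 1 was an antisense RNA gene, Slc36a3os. Slc9a3r1, a scaffold protein that binds a sodium-proton exchanger, Slc7a6os and Slc36a3os carry the name without being carriers, and they are counted because the symbol was the rule. The annotation used (GENCODE M21, build GRCm38) lists 379 such symbols. Slc1a5, Slc7a5, Slc38a1, Slc16a3, Slc2a3, Slc25a37, Slc25a39, Slc46a1 and Slc25a5, which are well-known carriers of amino acids, lactate, glucose, iron, folate and nucleotides, are not analysed here.

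Carriers of the cell surface bring in amino acids, sugars, nucleosides, vitamins and metal ions, carriers of the Slc25 family cross the inner mitochondrial membrane, and many Slc35 proteins carry nucleotide sugars into the Golgi apparatus and the endoplasmic reticulum. In blood formation these genes are known best from red cell precursors, which import iron and glycine in bulk to make heme, and from macrophages, which recycle iron and defend the phagosome. Stem and progenitor cells depend on carriers of neutral amino acids, lactate and nucleosides for growth.

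RNA was sequenced from CD45+ bone marrow cells enriched for the LSK fraction (lineage-negative, Sca1+, Kit+), which holds blood stem cells and early progenitors. Donors were C57Bl/6J mice, called WT, and Tet2-/- mice, aged 3 to 4 months and of both sexes. Tet2 encodes an enzyme that oxidises 5-methylcytosine in DNA, and its loss is common in clonal blood disorders. The allele is germline, so that every cell of the animal carries it, and whether animals were pooled is not stated in the labels. All marrow was harvested at 3% oxygen, called physioxia. The cells were then divided, and 1 share stayed at 3% oxygen while the other was moved to ambient air, about 21% oxygen, before RNA extraction. The extraction protocol in the labels gives 6 hours in air, and their general protocol for air controls gives 1 to 6 hours. This gave 4 groups of 4 libraries: WT in air, Tet2-deficient in air, WT in physioxia and Tet2-deficient in physioxia. The labels call the 4 replicates biological and matched.

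Libraries held between 7.77 and 15.7 M reads. A level is given below as the normalized count, which is the reads of a gene divided by 1 size factor per library. A difference is a log2 difference with its standard error (SE) from 1 limma fit over the 16 libraries on log2(normalized count + 1), which understates the change of genes with low counts. A gene is said to have risen or fallen where the two-sided Benjamini-Hochberg adjusted p over the 6110 genes tested was under 0.05. Tet2 averaged 855 ± 157 (SD, n = 4) in WT and 554 ± 54.1 in Tet2-deficient cells in air, and 731 ± 97.4 and 482 ± 35.9 in physioxia. Whole-gene counts check that label only in part. Kit, a defining marker of the LSK fraction, averaged 4099 in WT and 6737 in Tet2-deficient cells in air, and 3234 and 6490 in physioxia. Its level was thus higher in Tet2-deficient cells in both conditions. The genes of the other defining markers, Ly6a (Sca1) and Ptprc (CD45), are not analysed here. Of 24 erythroid marker genes, 23 rose in Tet2-deficient cells in air and 21 in physioxia. The mean log2 level of that list was 9.06 to 9.87 in WT libraries and 10.8 to 12.68 in Tet2-deficient libraries in air, and 9.28 to 10.07 and 10.78 to 12.51 in physioxia. Within the Tet2-deficient groups, air libraries 3 and 4 and physioxia libraries 2 and 3 stood highest on it. The monocyte list fell in 9 of 10 genes in air and 7 in physioxia, the neutrophil list in 8 and 9 of 10, the basophil and mast cell list in 10 and 11 of 12 and the T and NK cell list in 15 of 18 in each, where 1 member rose. Of 7 dendritic cell genes 3 fell in air, and 5 fell and 1 rose in physioxia, and of 2 B cell genes 0 were called in air and 2 fell in physioxia. The stem and progenitor list rose in 13 of 13 genes in air and 12 in physioxia. The part of these cell types in the results below was not tested, and in bulk RNA fewer cells of a type cannot be told apart from less RNA per cell.

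Of the 122 genes, 119 were tested, the requirement being 4 or more libraries with a normalized count of 10 or more. The excitatory amino acid carrier Slc1a3, the creatine carrier Slc6a8 and the ion exchanger Slc9b1 were too low. Per kb of exon, the highest level over all libraries was that of Slc35a4, at 2228 normalized counts per kb. The scaffold gene Slc9a3r1 followed at 2171 per kb. The nucleoside carrier Slc29a1 had 1269.97 per kb, the Golgi carrier Slc35c2 1169 per kb and the mitochondrial citrate carrier Slc25a1 1086 per kb. At the other end, Slc1a3 had 0.406 per kb, so the genes spanned more than 3 orders of magnitude on this scale.

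**Figure D1:**
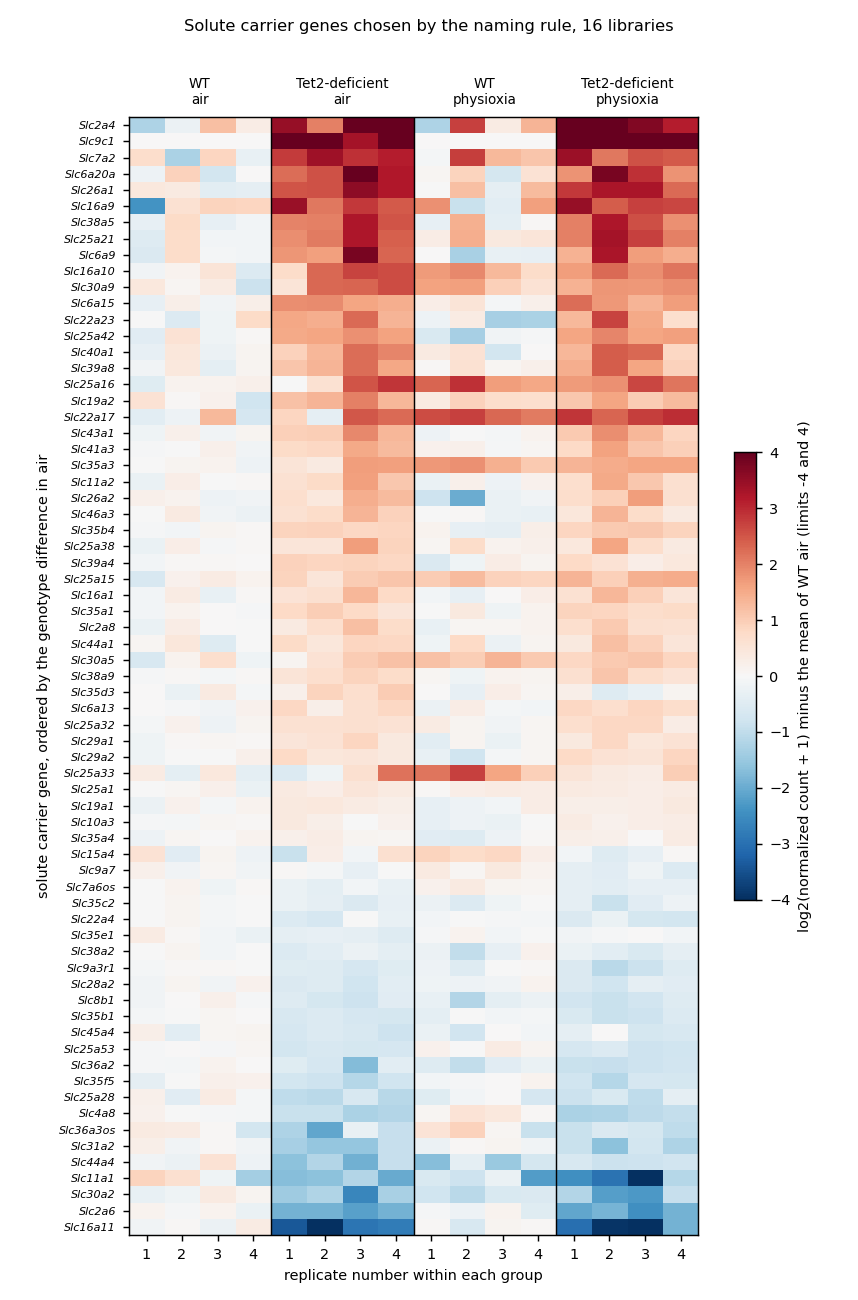
Each row is a solute carrier gene of the 69 chosen by the naming rule and each column a library, coloured by the log2 normalized count relative to the mean of the WT air libraries (colour limits −4 and 4). Rows chosen for large genotype differences are among them, so the change of colour between WT and Tet2-deficient libraries in most rows comes in part from the choice, and few rows change between air and physioxia.

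Comparison of Tet2-deficient with WT cells in air asked which carriers depend on genotype after exposure to ambient oxygen. In air 68 carrier genes rose in Tet2-deficient cells, 37 fell and 14 did not pass the test. These 105 called genes are 88.2% of the 119, against 79.5% of all genes tested, and the genes that rose stand against 42.1% of all genes and those that fell against 37.4%. The median log2 difference of the carriers was 0.53, and that of all genes tested was 0.24. A change of at least 1 on the log2 scale was seen in 29 genes that rose and 10 that fell, and the share of all genes with such a change is not given here. The Tet2-deficient and WT libraries did not overlap for 84 carriers, where 70.6% of all genes did not overlap.

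In physioxia 59 carriers rose, 26 fell and 34 did not pass, so that 71.4% were called where 69.4% of all genes were (35.9% higher and 33.6% lower). The median difference was 0.48 against 0.06 over all genes tested. At least 1 on the log2 scale separated the groups for 27 genes that rose and 9 that fell, again without a share over all genes. Libraries of the 2 genotypes did not overlap for 69 carriers, against 57.6% of all genes. Both backgrounds are high: 97.9% of the genes tested, and 98.3% of the carriers tested, reached an unadjusted p under 0.05 by DESeq2 in 1 or more of the 4 comparisons of groups, which marks the table as a selected one. Leaving out Tet2-deficient air libraries 3 and 4 left 43 carriers higher and 19 lower in air, and leaving out Tet2-deficient physioxia libraries 2 and 3 left 40 higher and 16 lower in physioxia. Of all 6110 genes, 1452 were then higher and 1308 lower in air, and 1499 higher and 1415 lower in physioxia. Leaving out any 1 library gave 56 to 71 higher and 28 to 37 lower in air, and 53 to 63 and 21 to 30 in physioxia.

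The 2 genotype comparisons use different libraries, made from shares of the same harvests, and no carrier was called in opposite directions in them. In both oxygen conditions 51 genes rose, which is 75.0% of those higher in air and 86.4% of those higher in physioxia. A further 21 fell in both, 56.8% of those lower in air and 80.8% of those lower in physioxia. Of all 6110 genes tested, 1775 rose and 1682 fell in both, and how many were called in opposite directions is not given here. In air alone 17 rose and 16 fell, in physioxia alone 8 rose and 5 fell, and the gene called in neither was Slc25a14, a mitochondrial uncoupling protein relative named here after its values were seen. A call in 1 condition alone does not show that the genotype difference depends on oxygen, which the interaction below tests.

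**Figure D2:**
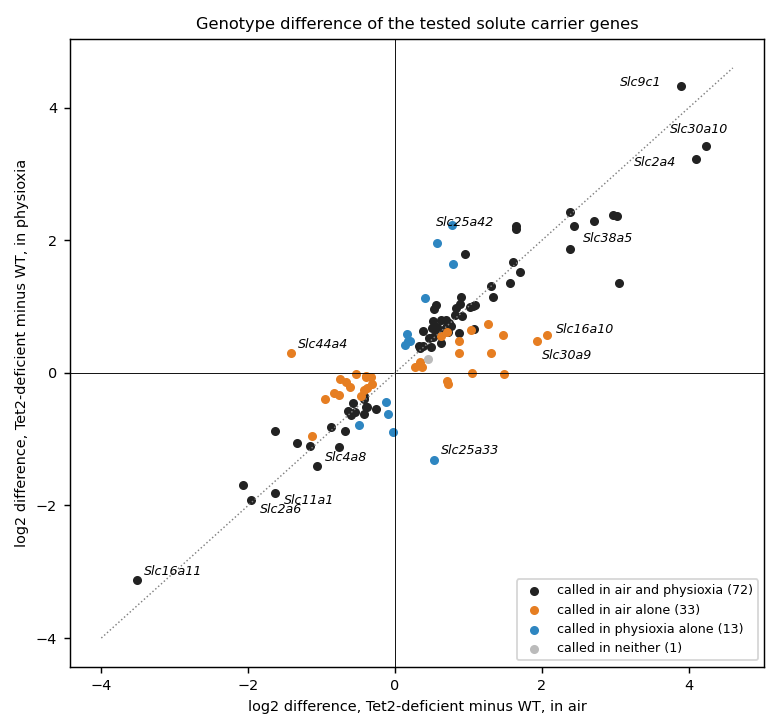
Each point is 1 of the 119 tested carrier genes, with the log2 difference of Tet2-deficient minus WT cells in air on the horizontal axis and in physioxia on the vertical axis. The 72 genes called in both conditions lie in the upper right and lower left, with none called in opposite directions.

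Of 16 iron, manganese, zinc, copper and magnesium carriers tested, 11 rose and 4 fell in air, and 9 rose and 3 fell in physioxia (median differences 0.80 and 0.54). The called share was 93.8% in air and 75.0% in physioxia, against 79.5% and 69.4% of all genes, the background for the count of each class that follows. Slc40a1, ferroportin, is the known exporter of iron from cells (chr1:45908068-45926523, − strand). Its normalized counts in air were 228, 387, 241 and 306 in WT and 543, 709, 1336 and 1102 in Tet2-deficient libraries. In physioxia they were 362, 425, 169 and 287 in WT and 708, 1537, 1408 and 509.9 in Tet2-deficient libraries. Every Tet2-deficient library lay above every WT library under each oxygen condition, and Tet2-deficient air 3 and physioxia 2 were highest. The log2 difference was 1.61 ± 0.37 (SE) in air and 1.67 ± 0.37 in physioxia, with limma adjusted p of 0.00198 and 0.00152. Without Tet2-deficient physioxia libraries 2 and 3 the physioxia difference was 1.03 (adjusted p 0.043).

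Slc11a2, the proton-coupled importer of ferrous iron known as DMT1, rose in the same libraries. It stood at 706, 1019, 842 and 882 in WT and 1299.6, 1454, 2673 and 1798 in Tet2-deficient air libraries, and at 716, 977, 742 and 959 in WT and 1362, 2424, 1824 and 1322 in Tet2-deficient physioxia libraries. No libraries of the 2 genotypes overlapped, and the differences were 1.02 ± 0.22 in air and 1.00 ± 0.22 in physioxia (adjusted p 0.00142 and 0.00163). Slc39a8, which brings zinc, manganese and iron into the cell, stood at 489, 736, 419.6 and 585 in WT and 1180.2, 1393, 2574 and 1602 in Tet2-deficient libraries in air. Its physioxia counts were 569, 837, 573 and 623 in WT and 1487, 2909, 1631 and 1039 in Tet2-deficient libraries. The genotypes did not overlap, and again Tet2-deficient air 3 and physioxia 2 were the highest libraries. Slc39a8 was higher by 1.56 ± 0.28 in air and by 1.36 ± 0.28 in physioxia (adjusted p 0.00034 and 0.00101).

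Slc30a10, an exporter of manganese, was scarcely detected in WT cells; it falls outside the naming rule and was chosen after its values were seen. WT libraries held 0, 13.1, 6.61 and 0.957 normalized counts in air and 17.7, 8.30, 0 and 6.83 in physioxia. Tet2-deficient libraries held 38.5, 42.5, 156 and 97.3 in air and 42.5, 149, 59.8 and 44.7 in physioxia. The lowest Tet2-deficient library was above the highest WT library in both conditions. The fitted differences were 4.24 ± 0.89 and 3.43 ± 0.89 (adjusted p 0.00103 and 0.00401), and WT counts are near 0. Single libraries moved the air value from 3.60 (without WT air 1) to 4.87 (without WT air 2) and the physioxia value to 2.56 (without WT physioxia 3). Without Tet2-deficient air 3 and 4 the air difference was 3.45 (adjusted p 0.0221). Slc41a3, a magnesium carrier, rose by 1.09 ± 0.19 in air and 1.02 ± 0.19 in physioxia, from 287 ± 29.7 (SD, n = 4) to 626 ± 157 and from 307 ± 23.7 to 636 ± 167 normalized counts. Slc39a4, a zinc importer, rose by 0.88 ± 0.18 and 0.60 ± 0.18 (adjusted p 0.000705 and 0.00757). Its physioxia call was lost after quantile normalization (0.40, adjusted p 0.0998) and without WT physioxia 1 and 2 (0.31, adjusted p 0.0948).

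Other metal carriers fell. Slc31a2, a copper carrier of endosomes and lysosomes, stood at 762, 596, 681 and 595 in WT and 258, 225, 222 and 344 in Tet2-deficient air libraries. In physioxia it stood at 552, 673, 702 and 597 in WT and 353, 208, 391 and 280.3 in Tet2-deficient libraries. The highest Tet2-deficient library lay below the lowest WT library in both conditions, and the differences were −1.34 ± 0.19 and −1.06 ± 0.19 (adjusted p 4.19e-05 and 0.000305). Slc11a1, the phagosomal metal exporter of macrophages and neutrophils, had low counts: 45.2, 37.2, 20.9 and 8.61 in WT and 6.55, 6.95, 10.0 and 5.08 in Tet2-deficient libraries in air. In physioxia they were 15.3, 12.9, 19.5 and 4.27 in WT and 3.54, 2.16, 0 and 10.3 in Tet2-deficient libraries. The genotypes overlapped in both conditions, and the fit gave −1.63 ± 0.66 and −1.81 ± 0.66 (adjusted p 0.0349 and 0.0242). In air the adjusted p was 0.0517 to 0.101 without any 1 of WT air 1, 2 and 3 and Tet2-deficient air 1, 2 and 4. In physioxia it was 0.0567 to 0.0946 without WT physioxia 1 or 3 or Tet2-deficient physioxia 3, and the difference without the last was −1.20.

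Amino acid carriers of the cell surface and the lysosome had 12 tested members, of which 7 rose and 3 fell in air and 9 rose and none fell in physioxia. Slc38a5 carries glutamine, serine and glycine with sodium (chrX:8271133-8280179, + strand). Its normalized counts in air were 422, 913, 422 and 488 in WT and 2081, 2163, 5027 and 3007 in Tet2-deficient libraries. In physioxia they were 426, 1416, 402 and 549.7 in WT and 2170.01, 4957, 3167 and 1867 in Tet2-deficient libraries. WT replicate 2 stood above the other WT libraries in each condition, yet no WT library reached the lowest Tet2-deficient one. The rise was 2.43 ± 0.41 in air and 2.22 ± 0.41 in physioxia (adjusted p 0.000182 and 0.000379).

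Slc43a1, a facilitative carrier of leucine and other large neutral amino acids (chr2:84838850-84863594, + strand), stood at 1010.3, 1290.00, 1033 and 1213 in WT and 2206, 2248, 4317 and 2849 in Tet2-deficient libraries in air. Its counts in physioxia were 978, 1107, 1082 and 1233 in WT and 2333, 4103, 2834 and 2062 in Tet2-deficient libraries. WT libraries lay close together, and every Tet2-deficient library was above all of them. The differences were 1.31 ± 0.21 and 1.32 ± 0.21 (adjusted p 0.000152 and 0.000141). Slc38a9, the lysosomal arginine sensor of the mTORC1 pathway, rose by 0.70 ± 0.14 and 0.71 ± 0.14 (adjusted p 0.000697 and 0.000686).

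Slc7a2, a carrier of arginine and other cationic amino acids, was nearly silent in WT air libraries (6.73, 1.01, 7.71 and 2.87) and stood at 31.9, 48.6, 35.0 and 41.5 in Tet2-deficient ones. In physioxia the counts were 3.54, 31.4, 10.7 and 9.39 in WT and 50.8, 19.4, 27.2 and 24.9 in Tet2-deficient libraries. The genotypes were apart in air and overlapped in physioxia, where WT library 2 was high. The difference was 3.06 ± 0.55 in air (adjusted p 0.000317) and 1.36 ± 0.55 in physioxia (adjusted p 0.0377). The physioxia call was lost, with adjusted p of 0.0523 to 0.14, without any 1 of Tet2-deficient physioxia 1, 3 and 4 or WT physioxia 1, 3 and 4. Slc38a2, a carrier of small neutral amino acids induced by amino acid shortage, gave −0.40 ± 0.17 in air (adjusted p 0.0436) and −0.07 ± 0.17 in physioxia (adjusted p 0.74). Its air call was lost, with adjusted p of 0.0507 to 0.0967, without any 1 of WT air 1, 2, 3 and 4, WT physioxia 3, Tet2-deficient air 1, 2 and 4 and Tet2-deficient physioxia 2 and 4.

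Carriers of the Slc6 family and Slc18b1, which move glycine, GABA and other neutral amino acids or amines, had 6 tested members, with 5 higher in air and all 6 in physioxia. Slc6a9, the surface glycine carrier GlyT1, stood at 19.2, 49.3, 27.5 and 26.8 in WT and 101, 92.9, 416 and 151 in Tet2-deficient air libraries. Its physioxia counts were 29.5, 11.1, 23.4 and 23.0 in WT and 76.8, 287, 95.1 and 80.8 in Tet2-deficient libraries. Both genotypes were fully apart, and Tet2-deficient air 3 and physioxia 2 stood far above the rest. It rose by 2.39 ± 0.50 in air and 2.42 ± 0.50 in physioxia (adjusted p 0.000988 and 0.000901), and by 1.71 in air without Tet2-deficient air 3 and 4 (adjusted p 0.0186). More than 20% of the exon bases of Slc6a9 overlap another annotated gene, and whether counting used the strand is not given in the sources used here.

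Slc6a15, a carrier of branched-chain amino acids and proline best known from neurons, did not follow that library order. It stood at 98.1, 144, 111 and 144 in WT and 452, 452, 370.3 and 337 in Tet2-deficient air libraries, and at 147, 176, 116 and 141 in WT and 585, 406, 315 and 394 in Tet2-deficient physioxia libraries. Tet2-deficient libraries were all higher, with air 3 and 4 the lowest of their group. The differences were 1.70 ± 0.20 and 1.52 ± 0.20 (adjusted p 7.48e-06 and 2.14e-05). Slc6a20a, which carries proline and other imino acids, rose by 3.02 ± 0.52 and 2.37 ± 0.52 (adjusted p 0.000219 and 0.00141), and by 2.40 and 1.58 without the libraries highest in erythroid markers (adjusted p 0.00706 and 0.0356). Slc6a13, a GABA and taurine carrier, rose by 0.63 ± 0.15 and 0.79 ± 0.15.

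Mitochondrial carriers, the Slc25 family, were split. Of 20 tested, 10 rose and 5 fell in air, and 6 rose and 6 fell in physioxia, with medians of 0.43 and 0.15. Slc25a21, which exchanges 2-oxoadipate and other dicarboxylates (chr12:56712634-57197472, − strand), stood at 95.2, 224, 124 and 125 in WT and 489, 580.03, 1277 and 710.2 in Tet2-deficient air libraries. In physioxia it stood at 168, 369.8, 179 and 188 in WT and 546, 1363, 915 and 552 in Tet2-deficient libraries. The genotypes did not overlap, with Tet2-deficient air 3 and physioxia 2 on top and WT replicate 2 the highest WT library in each condition. The rise was 2.39 ± 0.36 in air and 1.87 ± 0.36 in physioxia (adjusted p 7.69e-05 and 0.000589).

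Slc25a42, the mitochondrial carrier of coenzyme A, stood at 83.6, 175, 104 and 119 in WT and 336, 348, 414 and 359 in Tet2-deficient air libraries, and at 75.5, 45.2, 105 and 113 in WT and 346, 447, 348 and 365 in Tet2-deficient physioxia libraries. All Tet2-deficient libraries were above all WT libraries. The differences were 1.64 ± 0.26 and 2.22 ± 0.26 (adjusted p 0.000113 and 7.14e-06). Slc25a38, which imports glycine for the first step of heme synthesis, stood at 727, 1052, 858 and 907 in WT and 1226, 1221, 2804 and 1615 in Tet2-deficient air libraries. In physioxia the counts were 926, 1456, 959 and 1005 in WT and 1173, 2600.1, 1439 and 1132 in Tet2-deficient libraries. The genotypes were apart in air and overlapped in physioxia, where the second WT library stood above its group. The difference was 0.88 ± 0.28 in air (adjusted p 0.0115) and 0.48 ± 0.28 in physioxia (adjusted p 0.13), and the air value without Tet2-deficient air 3 and 4 was 0.48 (adjusted p 0.154).

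Slc25a53, a little-studied member of the family, fell from 529 ± 18.6 (SD, n = 4) to 330.3 ± 9.83 normalized counts in air and from 592 ± 56.6 to 322 ± 31.6 in physioxia. The groups were apart in both, with differences of −0.68 ± 0.11 and −0.87 ± 0.11 (adjusted p 0.000127 and 1.27e-05). Slc25a28, the mitochondrial iron importer mitoferrin-2, fell in air, with a difference of −0.96 ± 0.23 (adjusted p 0.00238), and gave −0.40 ± 0.23 in physioxia (adjusted p 0.128). Slc25a1, the citrate carrier, gave 0.36 ± 0.10 in air (adjusted p 0.00659) and 0.09 ± 0.10 in physioxia (adjusted p 0.455), and its air value without Tet2-deficient air 3 and 4 was 0.31 (adjusted p 0.0655).

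The Slc16 family, grouped here as carriers of lactate, pyruvate and other monocarboxylates, had 5 tested members. Of these, 4 were higher and 1 lower in air, and 3 higher and 1 lower in physioxia. The family includes Slc16a10, an exporter of aromatic amino acids that was among those higher in air. Slc16a1, the lactate and pyruvate carrier MCT1 (chr3:104638668-104658462, + strand), stood at 3118, 4189, 2745 and 3461 in WT and 4858, 5163, 8308 and 5808 in Tet2-deficient air libraries. In physioxia it stood at 3101, 2648, 3401 and 4038 in WT and 5082, 8385, 6458 and 4663 in Tet2-deficient libraries. Tet2-deficient libraries lay above WT libraries throughout, with air 3 and physioxia 2 near the same top level. It rose by 0.82 ± 0.20 and 0.88 ± 0.20 (adjusted p 0.00302 and 0.00198).

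The monocarboxylate gene that fell was Slc16a11 (chr11:70212752-70216417, + strand), a monocarboxylate carrier linked to pyruvate transport. WT libraries held 101, 116, 94.7 and 141 normalized counts in air and 114, 71.0, 122 and 114 in physioxia. Tet2-deficient libraries held 9.82, 2.60, 14.0 and 15.2 in air and 13.0, 6.48, 5.44 and 29.2 in physioxia. The lowest WT library was well above the highest Tet2-deficient one in both conditions. The differences were −3.51 ± 0.49 and −3.12 ± 0.49 (adjusted p 3.62e-05 and 0.000105). Without the Tet2-deficient libraries highest in erythroid markers they were −4.17 and −2.34 (adjusted p 7.87e-05 and 0.00413), so the fall was larger in air and smaller in physioxia without them.

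Sugar carriers went both ways, with 2 of 6 higher and 3 lower in air and 3 higher and 2 lower in physioxia. Slc2a6, a glucose carrier of lysosomes known as GLUT6 (chr2:27021363-27027998, − strand), had the smallest adjusted p of a falling carrier in each condition. In air its counts were 526, 464, 525 and 396 in WT and 127, 126, 105 and 126 in Tet2-deficient libraries. In physioxia they were 462, 415, 524 and 335 in WT and 112, 131, 85.6 and 127 in Tet2-deficient libraries. The groups lay far apart and the Tet2-deficient libraries within a narrow band. The differences were −1.97 ± 0.17 and −1.92 ± 0.17 (adjusted p 3.22e-07 and 4.78e-07).

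Slc2a4, the insulin-responsive glucose carrier GLUT4, was near absent in WT cells, with 0, 1.01, 4.40 and 1.91 normalized counts in air and 0, 14.8, 1.95 and 5.12 in physioxia. Tet2-deficient libraries held 25.4, 8.68, 175 and 58.4 in air and 39, 84.3, 29.9 and 19.8 in physioxia. Every Tet2-deficient library was above every WT library, yet the Tet2-deficient libraries in air differed among themselves by more than 10-fold. The fit gave 4.09 ± 0.89 and 3.23 ± 0.89 (adjusted p 0.00129 and 0.00548). Without Tet2-deficient air 2 or 3 the air value was 4.78 or 3.38, and without WT physioxia 1 or 2 the physioxia value was 2.55 or 3.87. Without Tet2-deficient air 3 and 4 it was 2.75 in air (adjusted p 0.0318), and without Tet2-deficient physioxia 2 and 3 it was 2.81 in physioxia, no longer past the threshold (adjusted p 0.0537). Slc2a8, an intracellular glucose and trehalose carrier, rose by 0.74 ± 0.18 and 0.75 ± 0.18 (adjusted p 0.00245 and 0.00229).

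**Figure D3:**
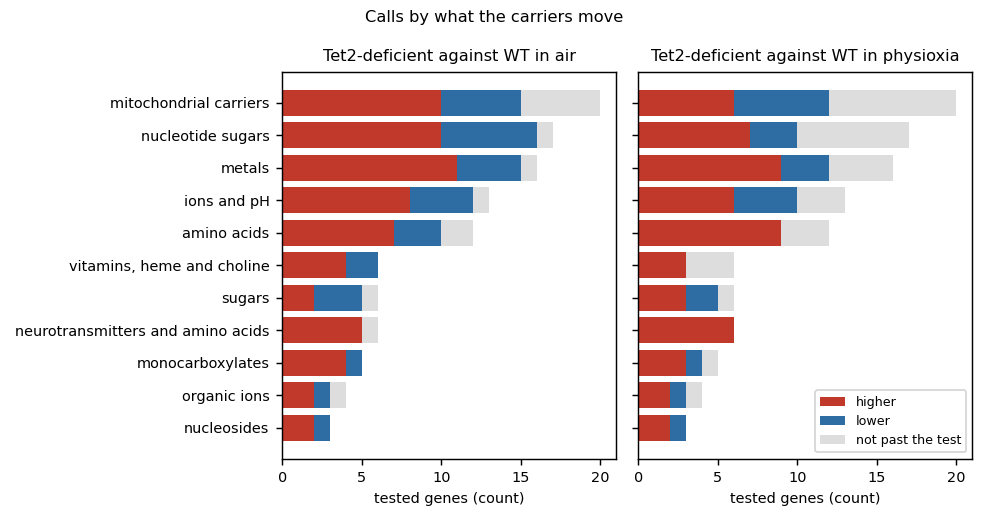
Bars count the tested carrier genes of each substrate class that rose or fell in Tet2-deficient cells, in air and in physioxia. Rises outnumber falls in the metal and amino acid classes, and mitochondrial carriers are split evenly in physioxia, with 6 in each direction.

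Of the 3 nucleoside carriers, 2 rose and 1 fell in each condition. The equilibrative carriers Slc29a1 and Slc29a2, which let nucleosides move down their gradient, rose, while Slc28a2, which concentrates purine nucleosides with sodium, fell. Slc29a1, also the route by which many nucleoside drugs enter cells, stood at 3698, 4263, 4335 and 4291 in WT and 5781, 6178, 7458 and 5387 in Tet2-deficient air libraries, and at 3075, 4465, 3469.98 and 4356 in WT and 5458, 7300.2, 5699.7 and 6226 in Tet2-deficient physioxia libraries. Its genotypes did not overlap, and the differences were 0.57 ± 0.14 and 0.69 ± 0.14 (adjusted p 0.00243 and 0.000676). Slc29a2 rose by 0.53 ± 0.18 and 0.97 ± 0.18 (adjusted p 0.0157 and 0.000407). Its air call was lost after quantile normalization (0.32, adjusted p 0.157), without WT air 1 and 2 (0.44, adjusted p 0.108) and without the 4 Tet2-deficient libraries highest in erythroid markers (0.62, adjusted p 0.05002). Slc28a2 stood at 3341, 4055, 3398 and 4159.7 in WT and 2516, 2604, 2125 and 2767 in Tet2-deficient air libraries, and at 3338, 3229.8, 3358 and 4113 in WT and 2478, 2148, 2909.7 and 2699.98 in Tet2-deficient physioxia libraries. Each WT library was above each Tet2-deficient library, with differences of −0.58 ± 0.12 and −0.46 ± 0.12 (adjusted p 0.00113 and 0.00488).

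Nucleotide sugar carriers and their relatives had 17 tested members, with 10 higher and 6 lower in air and 7 higher and 3 lower in physioxia. Slc35b4, which carries UDP-xylose and UDP-N-acetylglucosamine, stood at 298, 287, 333 and 320.5 in WT and 577, 589, 554 and 566 in Tet2-deficient air libraries, and at 339, 248, 240.3 and 360.2 in WT and 562, 633, 652 and 572 in Tet2-deficient physioxia libraries. Both groups were tight and apart, with differences of 0.89 ± 0.14 and 1.04 ± 0.14 (adjusted p 8.34e-05 and 1.88e-05). Slc35a1, which carries CMP-sialic acid for sialylation, rose by 0.77 ± 0.13 and 0.71 ± 0.13 (adjusted p 0.000156 and 0.000288). Slc35b1, an ATP and ADP exchanger of the endoplasmic reticulum, fell, with differences of −0.65 ± 0.10 and −0.57 ± 0.10 (adjusted p 0.000107 and 0.000305). Slc35f5, whose substrate is not established, fell from 759.8 ± 123 (SD, n = 4) to 412 ± 49.6 in air and from 750.3 ± 55.5 to 426 ± 59.2 in physioxia (adjusted p 0.000172 and 0.000274).

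Ion and pH carriers had 13 tested members, with 8 higher and 4 lower in air and 6 and 4 in physioxia. Slc9c1, a sodium-proton exchanger known from sperm (chr16:45535309-45607001, + strand), had no read in any of the 8 WT libraries. Tet2-deficient libraries held 14.7, 16.5, 9.01 and 16.9 normalized counts in air and 16.5, 24.8, 17.7 and 18.1 in physioxia, from 66 and 71 reads in all. Against a floor of 3 reads per WT library, Slc9c1 was at least 4.73-fold higher in air and at least 6.54-fold higher in physioxia, which covers counting error only. Slc9b1, which was too low to be tested, had 0 reads in WT and 37 in Tet2-deficient cells in air, at least 2.65-fold higher on the same floor.

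Slc4a8, a sodium-driven chloride and bicarbonate exchanger, fell. It stood at 802, 706, 697 and 676 in WT and 385, 389, 296 and 317 in Tet2-deficient air libraries, and at 755, 1039, 967 and 746 in WT and 298, 302, 344 and 369 in Tet2-deficient physioxia libraries. No libraries overlapped, and the differences were −1.06 ± 0.14 and −1.41 ± 0.14 (adjusted p 2.19e-05 and 1.32e-06). Slc26a1, an exchanger of sulfate, oxalate and other anions (chr5:108669878-108675569, − strand), stood at 30.8, 29.2, 16.5 and 17.2 in WT and 133, 137, 277 and 218 in Tet2-deficient air libraries, and at 22.4, 53.5, 17.5 and 55.5 in WT and 168, 227, 226 and 112 in Tet2-deficient physioxia libraries. Tet2-deficient libraries were all higher, by 2.96 ± 0.39 and 2.38 ± 0.39 (adjusted p 2.01e-05 and 0.000144).

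Among carriers of vitamins, heme and choline, 4 of 6 rose and 2 fell in air, and 3 rose and none fell in physioxia. Slc46a3, a lysosomal carrier, rose by 0.91 ± 0.21 in air and 0.86 ± 0.21 in physioxia (adjusted p 0.00213 and 0.00308), and without Tet2-deficient physioxia 2 and 3 the latter was 0.53 (adjusted p 0.0533). Slc19a2, a thiamine carrier, rose by 1.47 ± 0.26 in air (adjusted p 0.000268) and gave 0.58 ± 0.26 in physioxia (adjusted p 0.0566). Slc19a1, the reduced folate carrier, gave 0.34 ± 0.12 and 0.38 ± 0.12 (adjusted p 0.0234 and 0.0147). Its air call was lost without WT air 1 or 3 or Tet2-deficient air 2 (adjusted p 0.0528 to 0.0794) and its physioxia call without WT physioxia 1 (0.0541).

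A list of 53 transporters outside the carrier family, made of ABC transporters, V-ATPase subunits and others, had 26 higher and 14 lower in air and 28 higher and 12 lower in physioxia, with medians of 0.45 and 0.44. In each condition 75.5% were called, against 79.5% of all genes in air and 69.4% in physioxia. ABC transporters, which use ATP to export lipids and drugs, had 9 higher and 3 lower of 15 in air and 11 and 0 in physioxia. Subunits of the V-ATPase, which acidifies lysosomes, had 2 higher and 4 lower of 9 in air and 3 and 6 in physioxia. The list was chosen with earlier results of these data known.

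Several of the rising carriers shared an order of libraries within the Tet2-deficient groups. For 21 of the 51 carriers higher in both conditions (41.2%), air libraries 3 and 4 were the highest of their group and physioxia libraries 2 and 3 the highest of theirs, which is the order of the erythroid marker list. Of all genes that rose in both conditions, 497 of 1775 (28.0%) had that order. No carrier of the 21 that fell in both had it, against 39 of 1682 genes (2.32%). The 21 rising carriers include the iron and zinc carriers Slc40a1, Slc11a2 and Slc39a8, the amino acid carriers Slc38a5, Slc43a1 and Slc6a9, the mitochondrial carrier Slc25a21, the lactate carrier Slc16a1 and the urea carrier Slc14a1, which belongs to red cells as the Kidd antigen and is named here after its values were seen. Without Tet2-deficient air 3 and 4, 15 of the 21 stayed past the threshold in air, all of those named here among them. Without Tet2-deficient physioxia 2 and 3, 14 stayed past it in physioxia, those named here except Slc14a1 among them. The libraries left out are the highest by the definition of this order, so leaving them out lowers these differences by itself. How many of the 497 genes with that order stayed past the threshold is not given here. The order was read after the values were seen and is given as a description.

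**Figure D4:**
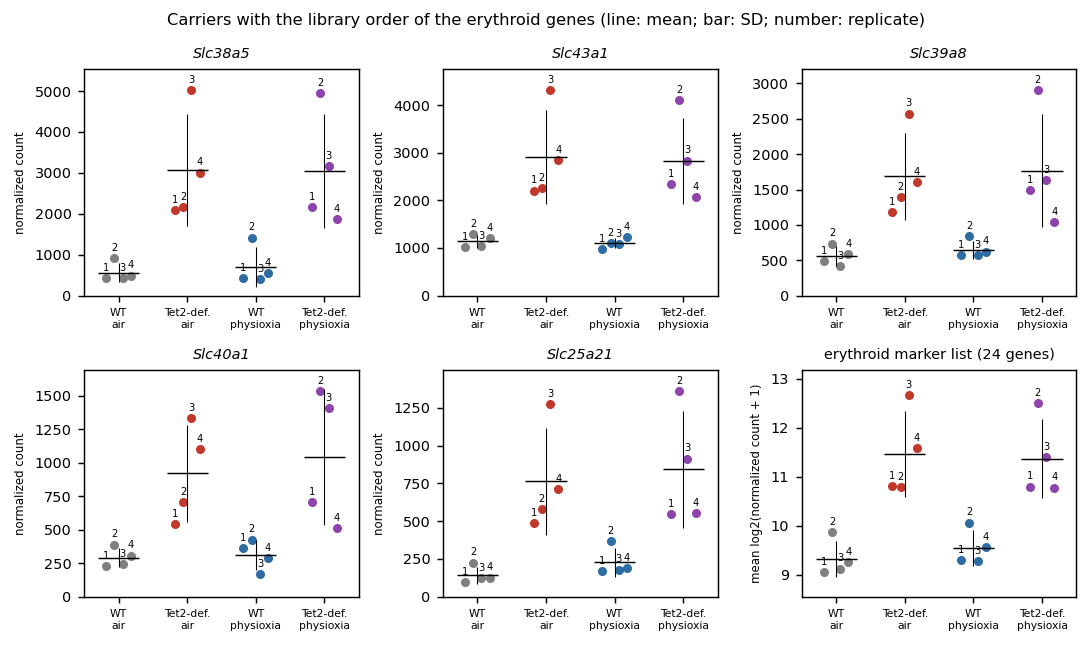
Dots are the normalized counts of Slc38a5, Slc43a1, Slc39a8, Slc40a1 and Slc25a21, and the mean log2 level of 24 erythroid markers, in each library of the 4 groups. Tet2-deficient air 3 and 4 and physioxia 2 and 3 are the highest of their groups in every panel.

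Promoter sequences from RefSeq (build GRCm38.p6) were found for 95 of the 122 genes, as 128 windows of 300 bases from 250 before to 50 after a gene start, and compared with all 32851 windows of that table. The E-box CACGTG, searched on both strands like the motifs that follow, lay in 17.2% of the carriers' windows and in 7.15% of all. The core bound by HIF proteins, ACGTG or GCGTG, lay in 64.8% against 43.8%, and every CACGTG also holds ACGTG. The GATA letters AGATAA or TGATAA lay in 14.8% against 18.6%, the AP-1 letters TGANTCA in 4.69% against 7.81%, the amino acid response letters TGATGNAA in 2.34% against 3.97% and the ETS letters CCGGAAGT in 3.91% against 3.89%. The carriers' windows had a median of 17 CpG dinucleotides against 7 over all windows. Windows of the carriers lower in both conditions had a median of 19 CpG, and 8.33% held the E-box. In the 21 windows of 15 carriers with the erythroid library order, 33.3% held the E-box and 23.8% the GATA letters, with a median of 12 CpG. A match is a description of letters and not a site of binding.

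The 250 bases before the start of 3 of these genes are shown because their levels followed the erythroid list and they hold the GATA letters or the E-box, in capitals. They were picked after values and matches were seen, among windows with no annotated exon. Slc16a1 at chr3:104638414-104638663 (+ strand) has TGATAA 240 bases and CACGTG 200 bases before its start. Slc26a1 at chr5:108674797-108675046 (− strand) has CACGTG 47 bases before 1 of its starts, and this stretch lies within the annotated gene. Another window of Slc26a1, chr5:108675316-108675615, has the GATA letters 177 bases before its start and no E-box. Slc30a10 at chr1:185454598-185454847 (+ strand) has the GATA letters on the other strand, written TTATCA, 205 bases before its start.
Slc16a1: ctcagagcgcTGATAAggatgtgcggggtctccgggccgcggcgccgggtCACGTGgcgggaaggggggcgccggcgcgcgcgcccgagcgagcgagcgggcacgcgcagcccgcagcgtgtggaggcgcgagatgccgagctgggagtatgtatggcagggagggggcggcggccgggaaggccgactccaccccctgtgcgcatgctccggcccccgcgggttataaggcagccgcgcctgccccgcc
Slc26a1: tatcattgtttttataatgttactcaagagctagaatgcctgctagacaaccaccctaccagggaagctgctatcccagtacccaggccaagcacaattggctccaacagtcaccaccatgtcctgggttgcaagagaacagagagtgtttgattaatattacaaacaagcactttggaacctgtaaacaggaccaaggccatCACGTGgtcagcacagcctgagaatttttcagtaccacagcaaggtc
Slc30a10: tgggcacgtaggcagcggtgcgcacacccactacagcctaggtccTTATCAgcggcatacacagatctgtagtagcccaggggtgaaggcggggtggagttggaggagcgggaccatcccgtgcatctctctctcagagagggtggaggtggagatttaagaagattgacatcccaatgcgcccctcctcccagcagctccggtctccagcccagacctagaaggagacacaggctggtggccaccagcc

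Comparison of physioxia with air within WT cells asked which carriers differ after time in air in cells with intact Tet2. Carriers that stood higher in physioxia were few: 7 rose, none fell and 112 did not pass, so 5.88% were called where 5.76% of all genes were (4.91% higher and 0.851% lower). The share of carriers called was therefore near the background. At an unadjusted limma p under 0.05, 13 were higher and 11 lower, 24 of 119 against 19.5% of all genes. With adjusted p, edgeR on whole reads called 7 and 0 (5.47% of all genes), and DESeq2 called 8 and 3 (8.97% of all genes). The cells were divided between the conditions and WT libraries of the same number deviated together, and with the replicate number as a block 8 carriers rose and 1 fell. The added calls were Slc30a9 (1.20, adjusted p 0.0204) and the zinc importer Slc39a1 (−0.73, adjusted p 0.0153), named after its value was seen. Physioxia and air libraries of WT cells did not overlap for 12 carriers, against 11.0% of all genes.

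The 7 genes carry unlike substrates, and 3 of them belong to the mitochondrial Slc25 family. Slc35a3, the Golgi carrier of UDP-N-acetylglucosamine (chr3:116669470-116712831, − strand), had the smallest adjusted p. WT libraries held 361, 393, 404 and 319.5 normalized counts in air and 1223, 1299, 983 and 767 in physioxia. The lowest physioxia library, at 767, was above the highest air library, at 404. The difference was 1.50 ± 0.26 (adjusted p 0.00955). In Tet2-deficient cells the counts were 525, 474, 1168 and 1149.5 in air and 952, 1035, 1102 and 1101 in physioxia, so air libraries 1 and 2 stood between the WT air and the physioxia libraries, and 3 and 4 above every physioxia library of their genotype.

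Slc22a17, a receptor for lipocalin-2, which binds iron-carrying siderophores, stood at 27.9, 32.2, 92.5 and 23.0 in WT libraries in air and 235, 252, 187 and 161 in WT libraries kept in physioxia. WT air 3 was the highest of its group and still below all physioxia libraries. Physioxia was higher by 2.43 ± 0.52 (adjusted p 0.0147), and without WT air 4 the adjusted p was 0.0526. In Tet2-deficient cells Slc22a17 stood at 68.7, 28.7, 212 and 182 in air and 279, 190.1, 261 and 296 in physioxia, with air 1 and 2 low and air 3 and 4 near the physioxia range.

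Slc30a5, which loads zinc into the secretory pathway, stood at 537, 909.6, 1327 and 744 in WT libraries in air and 1863, 1636, 2139 and 1706 in WT libraries kept in physioxia. Its groups were apart, with a difference of 1.13 ± 0.24 (adjusted p 0.0149, and 0.052 without WT air 4). Slc25a15, which carries ornithine into mitochondria for the urea cycle, stood at 220.1, 385, 436 and 379 in WT libraries in air and 699.6, 826, 653 and 625 in WT libraries kept in physioxia. The groups were apart, and the difference was 1.02 ± 0.20 (adjusted p 0.0113).

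Slc25a16, a mitochondrial carrier linked to coenzyme A, stood at 38.5, 59.4, 59.5 and 62.2 in WT libraries in air and 274, 413, 175 and 158 in WT libraries kept in physioxia. Physioxia 1 and 2 were highest, and the groups did not overlap (difference 2.11 ± 0.51, adjusted p 0.0245). Its call was lost, with adjusted p of 0.0566 to 0.0868, without any 1 of WT air 1, 2 and 4 and WT physioxia 1 and 2. Tet2-deficient libraries held 53.2, 83.4, 312 and 394 in air and 178, 194, 352 and 241 in physioxia, where air 1 and 2 lay below the physioxia libraries and air 3 and 4 within or above them.

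Slc25a33, a pyrimidine nucleotide carrier of mitochondria, stood at 65.4, 39.2, 69.4 and 39.2 in WT libraries in air and 232, 346, 157 and 99.9 in WT libraries kept in physioxia. The groups did not overlap, with physioxia 2 highest and physioxia 4 lowest of its group. The difference was 1.85 ± 0.49 (adjusted p 0.0366), and the call was lost without any 1 of WT air 1, 2 and 4, WT physioxia 1, 2 and 3 and Tet2-deficient physioxia 1 and 3 (adjusted p 0.0505 to 0.126). Slc16a10, which exports aromatic amino acids, stood at 614, 751, 972 and 459 in WT libraries in air and 2199, 2537, 1644 and 1129 in WT libraries kept in physioxia. Its difference was 1.41 ± 0.37 (adjusted p 0.0353), lost without any 1 of WT air 1, 2 and 4 and WT physioxia 1, 2 and 3 (adjusted p 0.0638 to 0.116).

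Slc35a3 and Slc25a15 kept their calls without any 1 library, and the other 5 did not. Without WT air 4, 2 carriers were higher in physioxia, and without any 1 of WT air 1, WT air 2, WT physioxia 1 and WT physioxia 2 there were 4, while leaving out WT physioxia 4 called 5 lower. None was higher without WT air 1 and 2, or without WT physioxia 1 and 2, and in each of these runs 0 of all 6110 genes were called. Libraries 1 and 2 were the highest of both WT groups in T and NK cell, monocyte, dendritic cell and neutrophil genes. The mean log2 level of the T and NK cell list was 7.72, 7.16, 6.51 and 6.27 in WT air libraries and 8.02, 7.39, 6.53 and 6.13 in WT physioxia libraries. Physioxia 1 and 2 were also the highest WT libraries for 6 of the 7 carriers, all except Slc30a5. Among the WT air libraries, neither 1 nor 2 was the highest for any of the 7 carriers. The part of those cell types in the oxygen calls was not tested. No marker of the T and NK, monocyte or dendritic lists was called between physioxia and air in WT cells. Of the 10 neutrophil genes, 1 was called higher in physioxia in WT cells and 0 lower. The mean log2 level of the neutrophil list was 7.27 to 9.07 in WT air libraries and 8.36 to 9.28 in WT physioxia libraries. All 7 calls, Slc35a3 and Slc25a15 included, were lost where annotated genes outside the table were counted as unchanged (adjusted p 0.0864 for Slc35a3 and 0.102 for Slc25a15). With that adjustment too, 0 of all 6110 genes were called.

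**Figure D5:**
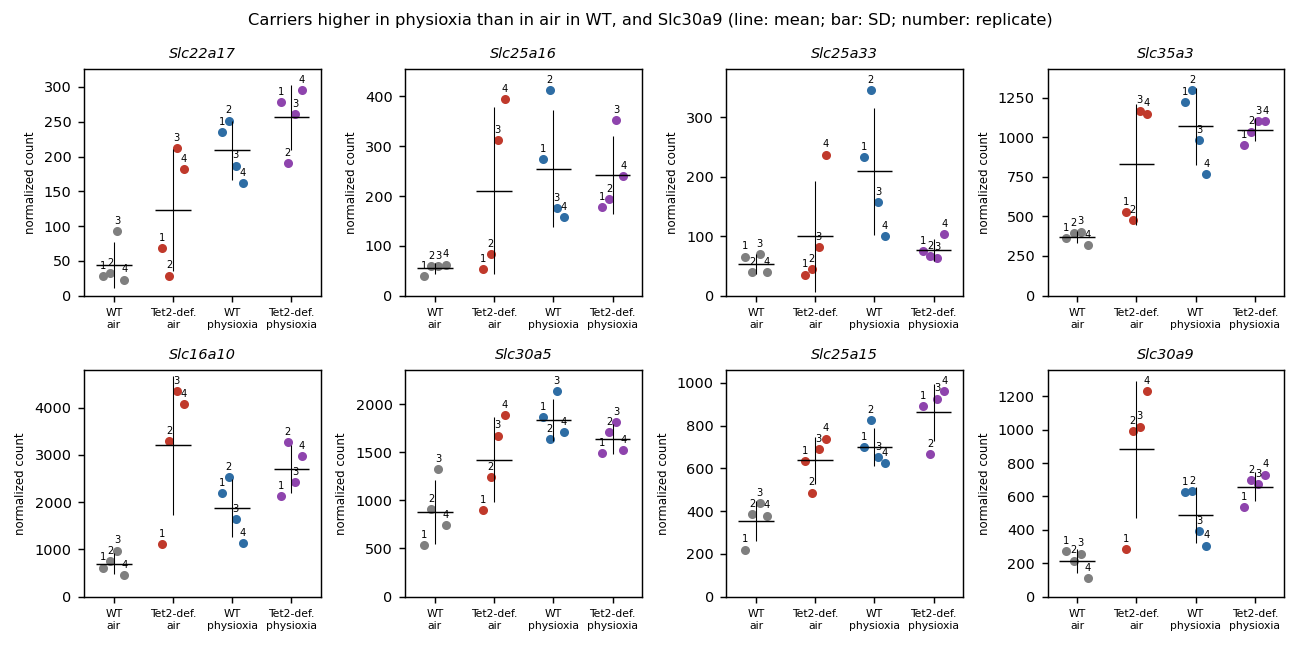
Dots are the normalized counts, by library and group, of the 7 carriers called higher in WT physioxia and of Slc30a9. WT air and WT physioxia libraries are apart in each panel. For Slc22a17, Slc25a16 and Slc35a3, Tet2-deficient air 1 and 2 lie below the WT physioxia libraries, and air 3 and 4 lie within their range.

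For 4 of the 119 carriers tested, Slc16a10, Slc25a15, Slc30a9 and Slc35a3, all 4 WT air libraries lay below each of the other 12 libraries, an order held by 130 of the 6110 genes (2.13%). Slc30a9, a mitochondrial zinc exporter, is the one of these that limma over all libraries called for oxygen in WT cells with the replicate block and not without it, and DESeq2 called it too. WT libraries held 270.1, 215, 257 and 112 normalized counts in air and 625, 633, 393 and 305 in physioxia, and Tet2-deficient air libraries held 286, 992, 1018 and 1232. The WT groups did not overlap, and WT air 4 and Tet2-deficient air 1 were low for their groups. The oxygen difference in WT cells was 1.20 ± 0.39 (adjusted p 0.0905), and the genotype difference in air was 1.93 ± 0.39 (adjusted p 0.000827). In physioxia Slc30a9 stood at 534, 696, 675 and 731 in Tet2-deficient libraries, with a genotype difference of 0.49 ± 0.39 (adjusted p 0.279).

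The same WT air libraries enter both the oxygen comparison and the genotype comparison in air, so their values are given side by side. Tet2-deficient libraries held 1111, 3288, 4359 and 4082 normalized counts of Slc16a10 after air and 2136, 3274, 2424 and 2978 in physioxia. Its genotype difference was 2.07 ± 0.37 in air (adjusted p 0.000286) and 0.57 ± 0.37 in physioxia (adjusted p 0.175). For Slc35a3 these were 1.04 ± 0.26 (adjusted p 0.003, and 0.0677 without Tet2-deficient air 3 and 4) and −0.00 ± 0.26 (adjusted p 0.998). Slc25a15 rose in Tet2-deficient cells by 0.87 ± 0.20 in air (adjusted p 0.00183) and gave 0.29 ± 0.20 in physioxia (adjusted p 0.196). In air the genotype values of Slc22a17, Slc25a16 and Slc30a5 were 1.31 ± 0.52, 1.49 ± 0.51 and 0.72 ± 0.24, and without Tet2-deficient air 3 and 4 they were 0.25, 0.30 and 0.34, with adjusted p of 0.628, 0.479 and 0.257. With all libraries the adjusted p was 0.0314, 0.0174 and 0.0162. The call of Slc22a17 was lost without any 1 of WT air 1, 2 and 4 and Tet2-deficient air 3 and 4 (adjusted p 0.0635 to 0.113), that of Slc25a16 without Tet2-deficient air 3 or 4 (0.0616 and 0.0646) and that of Slc30a5 without Tet2-deficient air 4 or WT air 1 (0.0557 and 0.0608). Slc25a33 went otherwise, with no genotype call in air and a fall in Tet2-deficient cells in physioxia. That fall was lost without any 1 of Tet2-deficient physioxia 2 and 3 and WT physioxia 1 and 2 (−1.02 to −1.25, limma adjusted p 0.0564 to 0.0839).

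Promoter windows of the 7 genes numbered 8, of which 87.5% held the HIF core and 37.5% the E-box, with a median of 25 CpG. The 250 bases before the start are shown for 2 of them, with the HIF core on either strand in capitals, since hypoxia-inducible factors are the best-known oxygen-dependent regulators. Slc30a5 at chr13:100833428-100833677 (− strand) has it 191, 61 and 60 bases before its start, the last 2 within a CACGTG, and Slc22a17 at chr14:54913133-54913382 (− strand) has it 29 bases before. They were picked after the values and matches were seen, and nothing about HIF in these cells is drawn from them.
Slc30a5: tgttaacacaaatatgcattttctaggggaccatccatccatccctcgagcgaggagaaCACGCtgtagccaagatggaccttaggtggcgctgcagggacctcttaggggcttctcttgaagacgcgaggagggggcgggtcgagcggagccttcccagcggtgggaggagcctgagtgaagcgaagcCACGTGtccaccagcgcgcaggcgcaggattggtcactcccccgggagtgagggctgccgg
Slc22a17: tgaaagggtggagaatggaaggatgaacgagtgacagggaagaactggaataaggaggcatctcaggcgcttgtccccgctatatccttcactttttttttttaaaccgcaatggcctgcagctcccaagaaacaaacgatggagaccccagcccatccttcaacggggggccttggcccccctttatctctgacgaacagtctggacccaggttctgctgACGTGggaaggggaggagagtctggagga

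In Tet2-deficient cells no carrier differed between physioxia and air by limma (smallest adjusted p 0.552), edgeR or DESeq2, which called 0.0%, 0.0% and 0.131% of all genes. At an unadjusted limma p under 0.05 there were 5 carriers of 119, against 4.58% of all genes. Libraries of the 2 conditions did not overlap for 4 carriers, Slc35e1, Slc39a4, Slc44a4 and Slc9a9 (the last named after its values were seen), against 3.75% of all genes. Without Tet2-deficient air 3 and 4, which stood apart for several genes above, 3 carriers were higher in physioxia, and 146 of the 6110 genes were. All 3 are among the 7 called in WT cells. Slc22a17 then differed by 2.48 (adjusted p 0.00945), Slc25a16 by 1.79 (adjusted p 0.0208) and Slc35a3 by 1.07 (adjusted p 0.00659). The libraries left out held the highest air counts of these 3 genes, and leaving them out raises the difference by itself. These values are therefore no test of an oxygen difference in Tet2-deficient cells.

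The interaction, which asks whether the oxygen difference depends on genotype, was called for no carrier by limma, edgeR or DESeq2, which called 0.0%, 0.0% and 0.18% of all genes. An unadjusted limma p under 0.05 was found for 12 of 119, of which 2 were positive and 10 negative, against 8.94% of all genes. The smallest was that of Slc44a4, a choline-like carrier also linked to thiamine pyrophosphate. In air Slc44a4 stood at 50.9, 47.3, 83.7 and 48.8 in WT libraries and 17.2, 24.3, 14.0 and 28.8 in Tet2-deficient ones. Its physioxia counts were 16.5, 42.4, 19.5 and 34.1 in WT libraries and 35.4, 30.2, 31.3 and 32.7 in Tet2-deficient ones. WT air libraries were above all Tet2-deficient libraries, and WT physioxia libraries overlapped them. Its interaction was 1.72 ± 0.45 (limma unadjusted p 0.00162, adjusted p 0.552), with a genotype difference of −1.42 ± 0.32 in air (adjusted p 0.00169) and 0.29 ± 0.32 in physioxia (adjusted p 0.422). Slc16a10 gave −1.50 ± 0.52 and Slc35a3 −1.05 ± 0.37, each with an adjusted p of 0.552. The carriers with a genotype call in 1 oxygen condition alone are therefore not shown to differ between conditions.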

How the data were processed

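CD45+ LSK-enriched marrow cells of WT and Tet2-/- mice were sequenced as 16 libraries in 4 groups of 4, taken from the labels. The deposited table holds a normalized signal, for which the authors scaled the reads of each gene by a size factor of the library. GRCm38, STAR, HTSeq, cutadapt, FastQC and DESeq2 are named per the submitters' processing notes, without versions or roles, and how the genes of the table were chosen, or whether counting used the strand, is not given in the sources used here. The table holds 6288 of 55450 annotated genes, and symbols were matched for 6278. All values were whole multiples of the value of 1 read within 0.01. For 2 columns, WT air 2 and Tet2-deficient air 3, that value is so near 1 that a general check of whole reads could not judge them, and the count tests still use all 16 columns.

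Tests covered the 6110 genes that reached a normalized count of 10 in 4 or more libraries, and 178 genes did not. A pseudocount of 1 was added and the log2 value fitted with limma 3.58.1 (R 4.3.3, trend) with a mean per group. Alternatives used edgeR 4.0.16 and DESeq2 1.42.0 on whole reads, other pseudocounts, filters and scalings, a replicate block and libraries left out. On simulated data the air genotype comparison recovered 90% of 2-fold and 99% of 4-fold changes, with 6 false calls among 6110 genes. The simulation gave all genes the same dispersion and changed 100 genes by each size, where 4858 genes were called in the data. Its rates check the fit and are not rates for these data. Depth was 7.77 to 15.7 M reads per library, and floors cover counting error only.

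The genes named were up to 8 per contrast and direction with the largest called difference, a mean of 50 or more and no overlap of the groups, the 3 with the smallest p where fewer than 3 passed, up to 4 per substrate class by p in air, the 5 highest per kb and a list of known carriers. Of these, 69 were in the table. The carriers, classes, marker lists and motifs were chosen with earlier results of these data known. Replicate numbers were checked as pairs by correlating deviations from the group means. Same-numbered WT libraries in air and physioxia correlated at 0.332, 0.178, 0.162 and 0.331, and the labels say the cells were divided. Same-numbered Tet2-deficient libraries correlated at 0.322, −0.275, 0.042 and −0.006. The highest correlation between the Tet2-deficient groups was 0.500, of air 3 with physioxia 2, whose numbers differ. Whether these 2 libraries share a source is not known. The numbers pair no libraries across genotypes.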

Additional observations from a re-analysis of the deposited data

Results flagged for a closer look

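Each of the 69 named carriers was examined in each of the 4 groups of 4 libraries, 276 groups in all, for a highest or lowest library that stands apart from the other 3 (gap to the nearest over the range of the group, above Dixon's 95% critical value). Chance alone picks out about 1 in 20 such groups, and 17 were found. WT physioxia 2 accounted for 4 of them and Tet2-deficient air 3 for 3.

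WT physioxia 2 was the highest of its group for Slc38a5, at 1416 normalized counts against 402 to 549.7 in the other libraries, for Slc25a21, at 369.8 against 168 to 188, and for Slc25a38, at 1456 against 926 to 1005. It was the lowest for Slc16a11, at 71.0 against 114 to 122. Slc38a5 was highest also in WT air 2, at 913 against 422 to 488. Tet2-deficient air 3 was highest for Slc22a23, at 70.1 against 37.2 to 41.7, and for Slc25a28, at 69.1 against 49.9 to 53.2, and lowest for Slc2a6, at 105 against 126 to 127. Tet2-deficient physioxia 2 was highest for the glycine carrier Slc6a9, at 287 against 76.8 to 95.1, and for the glucose carrier Slc2a8, at 879 against 647 to 675.

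WT air 3 was highest for Slc22a17, at 92.5 against 23.0 to 32.2, and for Slc44a4, at 83.7 against 47.3 to 50.9. WT air 1 was lowest for Slc25a16, at 38.5 against 59.4 to 62.2, and for Slc29a1, at 3698 against 4263 to 4335. WT physioxia 4 was highest for Slc28a2, at 4113 against 3229.8 to 3358. WT physioxia 1 was lowest for Slc2a8, at 343 against 448 to 466. Tet2-deficient air 4 was lowest for Slc35e1, at 197 against 221 to 222.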

How the results depend on the processing

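For the 69 named carriers, no difference called in the limma fit over all libraries changed direction under any alternative run. The other carriers were not checked for this. Without Tet2-deficient air libraries 3 and 4, 43 carriers were higher and 19 lower in Tet2-deficient cells in air, where 1452 and 1308 of all 6110 genes were. In that run 3 carriers were higher in physioxia than in air in Tet2-deficient cells. Leaving out Tet2-deficient physioxia 2 and 3 as well gave 44 and 16 in air and 42 and 16 in physioxia, and leaving out those 2 alone gave 40 and 16 in physioxia. Adjusting as if every annotated gene outside the table had not changed, 38 were higher and 14 lower in air, 41 higher and 16 lower in physioxia and 0 higher for oxygen in WT cells. The last count was 0 also without WT air libraries 1 and 2 and without WT physioxia libraries 1 and 2. In each of these runs 0 of all 6110 genes were called for oxygen in WT cells. All pairs left out were chosen with results of these data known. Carriers lower in WT physioxia numbered 2 after quantile normalization and 3 with DESeq2. Quantile normalization moved the median of all genes in air from 0.24 to 0.12 and left 50 carriers higher and 34 lower there. The cause was not tested. Leaving out 1 library in turn gave 56 to 71 higher and 28 to 37 lower in air, 53 to 63 and 21 to 30 in physioxia, and 2 to 8 higher and 0 to 5 lower for oxygen in WT cells.

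With the replicate block, 69 carriers were higher and 37 lower in air, 58 and 26 in physioxia, and 8 higher and 1 lower for oxygen in WT cells, the comparison in which the replicate numbers pair the libraries.

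Low counts limit Slc30a10, Slc2a4, Slc11a1 and Slc9c1, whose lowest libraries lie within a few reads of 0.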
